A study of Homo sapiens with 9 samples.

Results

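The genes described here encode the NF-kappa B transcription factor family and its feedback inhibitors. They were chosen by symbol, and all 10 were among the 26364 gene names in the count table and passed the filter on low counts in every comparison. The subunits were *NFKB1*, *NFKB2*, *REL*, *RELA* and *RELB*, the inhibitors were *NFKBIA*, *NFKBIE*, *NFKBIZ* and *TNFAIP3*, and *BIRC3* encodes a ubiquitin ligase of the same pathway. RNA was sequenced from A549 cells, a human lung adenocarcinoma line, in 9 libraries. The 2 A549 libraries came from cells labelled wild type. The 2 *LA* libraries came from cells given guides against *LOC388942* and *ALK*, in which the *LOC388942-ALK* fusion formed. The 3 sgScr libraries came from cells with the same pair of guides plus a scramble guide, and the 2 sg*FOS* libraries from cells with that pair plus guides against *FOS*. According to the methods, the guides were given to A549 cells that carry Cas9, and *LA* cells were grown as clones from single cells. No source used here states whether the A549 libraries came from the Cas9 cells, which *FOS* guide was used in which library, or whether libraries of a group came from separate cultures. The *p*-values therefore measure the spread between these libraries, which may be technical.

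NF-kappa B proteins bind DNA as dimers. In resting cells, inhibitor proteins such as the products of *NFKBIA* and *NFKBIE* hold the dimers in the cytoplasm until a kinase complex, activated by receptors for tumor necrosis factor, interleukin-1 or microbial products, marks the inhibitor for degradation. The canonical branch acts mainly through the *RELA*, *REL* and *NFKB1* products, and the noncanonical branch through those of *RELB* and *NFKB2*. Several genes of the pathway, including *NFKBIA*, *TNFAIP3* and *BIRC3*, are themselves known NF-kappa B targets, so that the pathway feeds back on itself. In lung epithelium it is known for driving the expression of chemokines and survival genes.

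The DNA letters that NF-kappa B reads, the kappa B site, can be seen directly in front of these genes. RefSeq sequences on GRCh38.p14, a newer build than the hg19 build of the counts, were available for 13 promoter windows of 8 members, each with the 250 bases upstream of an annotated start. *RELB* and *NFKBIE* had no entry. Whole windows are shown for *REL*, *TNFAIP3* and *BIRC3*, whose transcripts were called in several comparisons below, and for *NFKBIA*, the best-known target of the family. Capitals mark a match to the kappa B consensus, searched on both strands, with overlapping matches counted separately and printed as 1 run. The lines give *REL* (chr2:60881324-60881573, plus strand), *TNFAIP3* (chr6:137867009-137867258, plus strand), *BIRC3* (chr11:102317234-102317483, plus strand) and *NFKBIA* (chr14:35404750-35404999, minus strand), each 5′ to 3′ and ending next to the start.
REL: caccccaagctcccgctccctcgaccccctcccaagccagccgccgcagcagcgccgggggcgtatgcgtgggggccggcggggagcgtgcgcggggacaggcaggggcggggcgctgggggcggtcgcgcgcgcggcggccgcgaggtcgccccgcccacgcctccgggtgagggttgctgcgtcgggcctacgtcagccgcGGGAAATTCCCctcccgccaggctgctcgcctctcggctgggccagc
TNFAIP3: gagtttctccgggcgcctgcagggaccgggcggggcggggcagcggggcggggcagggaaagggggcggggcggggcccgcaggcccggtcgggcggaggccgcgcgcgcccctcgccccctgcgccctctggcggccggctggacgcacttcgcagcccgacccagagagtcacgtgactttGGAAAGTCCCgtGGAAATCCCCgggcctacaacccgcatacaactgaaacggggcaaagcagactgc
BIRC3: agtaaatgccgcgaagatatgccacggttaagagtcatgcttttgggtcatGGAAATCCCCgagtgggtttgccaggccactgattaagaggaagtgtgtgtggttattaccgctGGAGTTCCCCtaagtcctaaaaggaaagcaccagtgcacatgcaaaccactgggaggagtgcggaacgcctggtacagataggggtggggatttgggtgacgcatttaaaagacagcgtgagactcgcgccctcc
NFKBIA: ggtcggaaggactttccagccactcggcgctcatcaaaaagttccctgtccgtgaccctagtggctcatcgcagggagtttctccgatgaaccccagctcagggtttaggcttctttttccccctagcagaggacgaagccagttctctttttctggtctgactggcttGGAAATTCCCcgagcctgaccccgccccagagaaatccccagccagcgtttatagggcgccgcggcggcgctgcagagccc

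For members with several annotated starts, stretches around single matches are shown as examples. All were found with the same consensus, so their likeness was set by the search. *NFKB1* carries its match 49 bases upstream of a start (chr4:102501300-102501329), and *NFKBIZ* carries the same letters upstream of its first start (chr3:101827757-101827786). *NFKB2* carries matches upstream of 2 of its starts, with examples at chr10:102394490-102394519 and chr10:102395674-102395703. Not shown are further *NFKB2* matches in the same windows (GGGAATTCCC, GGAATTCCCC and GGGGCTTCCC) and GGGGTTTCCC upstream of another *NFKBIZ* start. All of these lie on the plus strand.
NFKB1: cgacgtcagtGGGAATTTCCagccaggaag
NFKBIZ: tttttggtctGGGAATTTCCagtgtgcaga
NFKB2 first site: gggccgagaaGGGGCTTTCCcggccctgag
NFKB2 second site: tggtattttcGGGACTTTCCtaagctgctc

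A match was found in 7 of the 8 member genes, *RELA* being the one without, and in 9 of their 13 windows. Among all 35116 promoter windows of the same length, 5.206% held one. The AP-1 motif TGANTCA, the letters read by FOS and JUN dimers, was found in 0 of the 13 windows on either strand and in 6.573% of all windows. A match is a run of letters and not a measured binding site, and no match says only that these letters are not in this window.

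Total counts ranged from 14507228 to 20456341 per library. Levels are given as counts per 1e6 counts (CPM) after TMM scaling over all 9 libraries. The libraries of A549 and *LA* varied far more than the others. Per degree of freedom, the chi-square of replicates was 125.4 for A549 and 58.1 for *LA*, against 1.74 for sg*FOS* and 1.76 to 2.65 for sgScr. The edited gene *FOS* stood at 10.8 and 9.15 CPM in A549, at 335 and 92.8 in *LA*, at 199.8, 196 and 203 in sgScr, and at 68.4 and 74.1 in sg*FOS*. *ALK* had 0 and 0 counts in A549, 2 and 15 in *LA*, 4, 1 and 3 in sgScr, and 2 and 0 in sg*FOS*. Of 5 epithelial markers, *KRT8* (2873 to 10280 CPM) and *KRT18* (1647 to 7376 CPM) were abundant in all 9 libraries. *KRT19* was at 32.6 to 174 CPM, *CDH1* at 18.55 to 101.5 and *EPCAM* at only 3.01 to 13.1. *CDH1* had 287 and 372 counts in A549 and at least 1043 in every other library. *PTPRC* and *CD3E* of leukocytes had no count in any library, and the lung lineage genes *NKX2-1*, *SFTPC* and *SFTPB* stayed at or below 0.335 CPM. The monocyte markers *CD14* and *CD68* were at 8.12 to 42.6 and 23.5 to 46.7 CPM, and the 5 leukocyte markers summed to 53.9 to 76.8 CPM in A549, 39.0 to 39.5 in *LA*, 37.6 to 39.2 in sgScr and 53.6 to 56.4 in sg*FOS*. Their part in the results was not tested.

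Among the subunits, *REL* differed most between cells without and with the fusion. *REL* encodes c-Rel, a subunit with an activation domain that is best known from lymphocytes. It was at 3.62 and 4.43 CPM in A549, at 28.7 and 20.3 in *LA*, at 33.8, 31.2 and 33.2 in sgScr, and at 35.9 and 34.0 in sg*FOS*. Every library with the fusion guides was higher than both A549 libraries. In *LA* against A549, *REL* rose 5.98-fold (log2 fold change 2.58, SE 0.48, adjusted *p* = 0.0015 from edgeR), a call that held in the 14 alternatives run, with adjusted *p*-values up to 0.047. The sgScr libraries, set against the same A549 libraries, gave an 8.16-fold higher level (log2 3.03, SE 0.19, edgeR adjusted *p* = 0.0040), a call lost without sgScr replicate 2 (adjusted *p* = 0.052) or 3 (adjusted *p* = 0.054). *REL* has a long transcript of 11108 bases with a GC content of 38.4%, and long transcripts as a whole were higher in *LA* than in A549, as described further down. With a correction for length and GC content the *REL* values fell to 2.77-fold in *LA* (edgeR adjusted *p* = 0.022) and 3.88-fold in sgScr (edgeR adjusted *p* = 0.0014).

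*NFKB1* encodes a precursor that is processed into a DNA-binding subunit without an activation domain. Its level was 28.7 and 29.2 CPM in A549, 35.1 and 60.0 in *LA*, 50.7, 47.6 and 53.3 in sgScr, and 49.9 and 51.1 in sg*FOS*. Both *LA* libraries lay above both A549 libraries, but the distance between them was wide, and the log2 fold change of 0.69 (SE 0.42) had an edgeR adjusted *p* of 0.25. The tighter sgScr libraries were 1.76-fold higher than A549 (edgeR adjusted *p* = 0.011), a call lost when any of the sgScr libraries was left out (adjusted *p* from 0.064 to 0.070).

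*RELA* encodes the main activating subunit of the canonical branch. It was the steadiest subunit, at 108 and 90.7 CPM in A549, 75.3 and 105 in *LA*, 80.7, 81.3 and 82.7 in sgScr, and 89.3 and 84.9 in sg*FOS*. The A549 and *LA* ranges overlapped, and the log2 fold change was -0.17 (SE 0.39, edgeR adjusted *p* = 0.80). No comparison called *RELA*.

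The noncanonical pair behaved differently. *NFKB2* encodes the precursor of the noncanonical DNA-binding subunit and *RELB* its usual partner. *NFKB2* was at 84.9 and 56.7 CPM in A549, 43.5 and 119 in *LA*, 116, 116 and 121 in sgScr, and 150.1 and 150.4 in sg*FOS*. *RELB* was at 35.6 and 20.5 CPM in A549, 11.6 and 34.3 in *LA*, 25.3, 23.8 and 23.6 in sgScr, and 32.4 and 34.5 in sg*FOS*. For both genes the *LA* libraries spanned or overlapped the A549 range, while the sg*FOS* libraries lay above all 3 sgScr libraries. In *LA* against A549 the log2 fold changes were 0.17 (SE 0.44) and -0.32 (SE 0.48) and were not called. In sg*FOS* against sgScr, *NFKB2* rose 1.28-fold (log2 0.36, SE 0.039, edgeR adjusted *p* = 4.9e-09) and *RELB* 1.38-fold (log2 0.47, SE 0.073, edgeR adjusted *p* = 5.8e-06). Against A549, *NFKB2* was 1.68-fold higher in sgScr (edgeR adjusted *p* = 0.027), a call lost with any 1 sgScr library left out (adjusted *p* from 0.10 to 0.11) and with all 9 libraries in 1 fit (adjusted *p* = 0.12), and *RELB* was not called (log2 -0.19, SE 0.24).

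**Figure D1:**
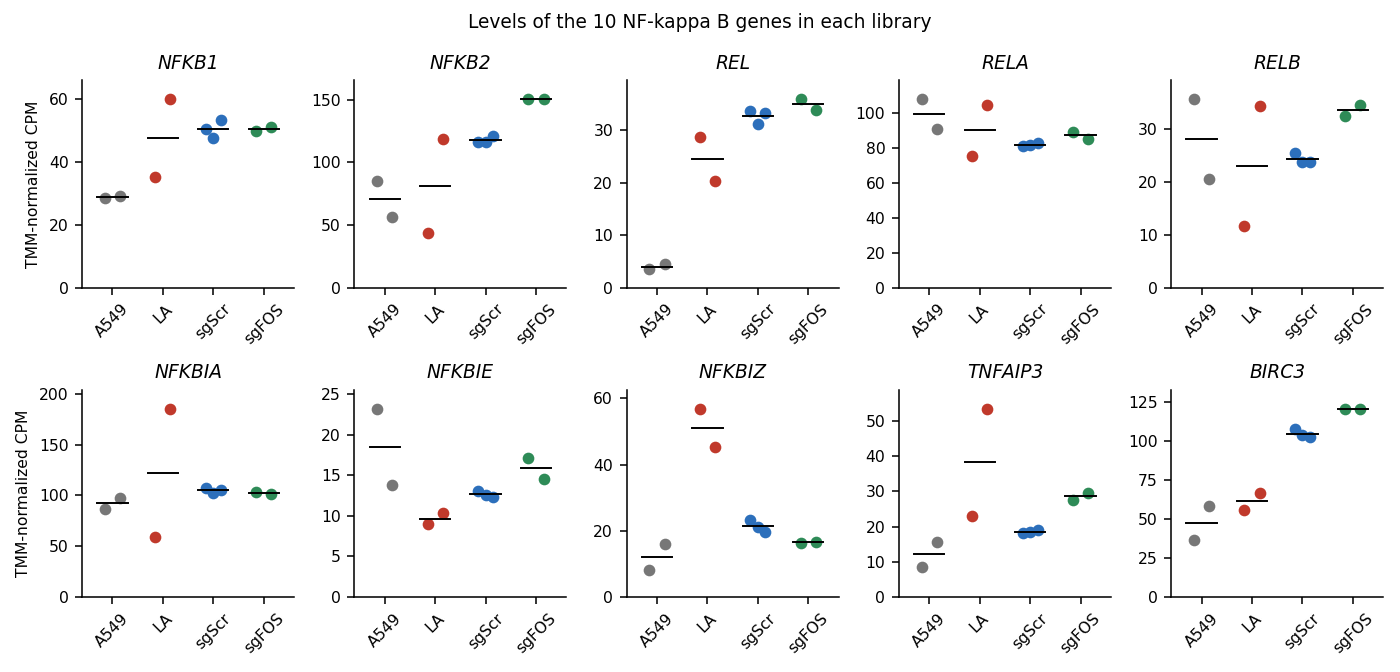
TMM-scaled CPM on a linear axis from 0 for each of the 10 genes, with a point per library and a bar at the group mean for A549, *LA*, sgScr and sg*FOS*. The *REL* points of the 7 libraries with fusion guides lie between 20.3 and 35.9 CPM, above 3.62 and 4.43 in A549, and the *NFKBIA* points of *LA* lie far apart at 58.7 and 186.

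Inhibitors were read next. *NFKBIA* encodes the main inhibitor protein of the canonical branch and is its best-known feedback target. It was at 86.9 and 97.7 CPM in A549, 58.7 and 186 in *LA*, 107, 102 and 105 in sgScr, and 103 and 101 in sg*FOS*. One *LA* library lay below and the other above every other library of the series. The log2 fold change in *LA* against A549 was 0.37 (SE 0.45, edgeR adjusted *p* = 0.60), and in sg*FOS* against sgScr it was -0.03 (SE 0.042, edgeR adjusted *p* = 0.61).

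*NFKBIZ* encodes an atypical inhibitor that acts in the nucleus and is known to be needed for a subset of target genes. It was at 8.08 and 16.1 CPM in A549, 56.9 and 45.3 in *LA*, 23.3, 21.3 and 19.8 in sgScr, and 16.3 and 16.7 in sg*FOS*. Both *LA* libraries were higher than all others, and the sgScr libraries lay between *LA* and A549. *NFKBIZ* rose 4.14-fold in *LA* against A549 (log2 2.05, SE 0.46, edgeR adjusted *p* = 0.0038), and 3.32-fold with the length and GC correction (edgeR adjusted *p* = 0.010). Without *LA* replicate 1 the log2 fold change was 1.84 and no longer called (edgeR adjusted *p* = 0.10). It was 2.41-fold lower in sgScr than in *LA* (edgeR adjusted *p* = 0.0038) and fell again in sg*FOS*, 1.30-fold below sgScr (log2 -0.38, SE 0.093, edgeR adjusted *p* = 0.0023). The annotated span of *NXPE3* overlaps *NFKBIZ* by 15753 bp on the same strand. *NXPE3* itself was not called in *LA* against A549 (log2 0.75, SE 0.40, edgeR adjusted *p* = 0.19) or in sg*FOS* against sgScr (log2 0.10, SE 0.042, edgeR adjusted *p* = 0.084).

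*TNFAIP3* encodes an enzyme that edits ubiquitin chains and shuts the pathway off. It was at 8.66 and 15.8 CPM in A549, 23.0 and 53.6 in *LA*, 18.2, 18.5 and 19.0 in sgScr, and 27.5 and 29.7 in sg*FOS*. The *LA* libraries lay above the A549 libraries, and the sg*FOS* libraries above the sgScr libraries. In *LA* it was 3.05-fold higher than in A549 (log2 1.61, SE 0.48, edgeR adjusted *p* = 0.021). The call was lost with the length and GC correction (2.23-fold, edgeR adjusted *p* = 0.082) and with the replicate number as a block (edgeR adjusted *p* = 0.053). It was also lost without A549 replicate 1, *LA* replicate 1 or *LA* replicate 2 (log2 1.20, 2.07 and 0.91). In sgScr against A549 *TNFAIP3* was not called (log2 0.61, SE 0.28, edgeR adjusted *p* = 0.13). In sg*FOS* against sgScr *TNFAIP3* rose 1.55-fold (log2 0.63, SE 0.081, edgeR adjusted *p* = 1.4e-07).

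*NFKBIE* encodes a further inhibitor protein of the classical type. It was at 23.2 and 13.8 CPM in A549, 8.97 and 10.3 in *LA*, 13.0, 12.5 and 12.3 in sgScr, and 17.2 and 14.5 in sg*FOS*. It was the only member with both *LA* libraries below both A549 libraries, and the log2 fold change of -0.96 (SE 0.46) was not called (edgeR adjusted *p* = 0.14). In sg*FOS* against sgScr it was 1.256-fold higher (log2 0.33, SE 0.11, edgeR adjusted *p* = 0.022), a call that was lost with DESeq2 (adjusted *p* = 0.11), with the length and GC correction (adjusted *p* = 0.087), without sgScr replicate 2 (adjusted *p* = 0.062) and without sg*FOS* replicate 1 (adjusted *p* = 0.38).

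*BIRC3* encodes a ubiquitin ligase that takes part in signaling from tumor necrosis factor receptors and restrains the noncanonical branch. It was at 36.5 and 58.1 CPM in A549, 55.9 and 66.5 in *LA*, 108, 104 and 102 in sgScr, and 121 and 121 in sg*FOS*. The 5 libraries with a further guide were all higher than the *LA* and A549 libraries. In *LA* against A549 the log2 fold change of 0.34 (SE 0.41) was not called and became -0.43 with the length and GC correction. The level was 1.69-fold higher in sgScr than in *LA* (edgeR adjusted *p* = 0.0077, and from 0.056 to 0.063 with any 1 sgScr library left out) and 2.22-fold higher in sgScr than in A549 (edgeR adjusted *p* = 0.014, and from 0.066 to 0.068 with any 1 sgScr library left out, 1.25-fold with the correction). In sg*FOS* it rose 1.15-fold over sgScr (log2 0.21, SE 0.041, edgeR adjusted *p* = 2.1e-04).

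*LA* against A549 sets cells with the fusion against cells labelled wild type. According to the methods, the *LA* cells were also grown as clones after editing. Fusion, clone and editing therefore cannot be told apart in this comparison. Of the 10 members, 3 rose (*REL*, *NFKBIZ* and *TNFAIP3*) and 0 fell, where 9.57% of all 14425 genes tested were called higher, 9.94% lower and 19.5% in either direction. With the correction 2 rose, where 5.39% of all genes did. In sgScr against A549, *REL* was called higher too, while *NFKBIZ* and *TNFAIP3* were not called (edgeR adjusted *p* = 0.079 and 0.13). The members' median log2 fold change was 0.35, against 0.04 over all genes. In 4 members both *LA* libraries lay above both A549 libraries and in 1 below, where 33.8% of all genes lay above, 30.0% below and 63.8% did not overlap in either direction. Scaling by library size alone moved the median of all genes from 0.04 to 0.33, and under it *RELA* (0.13) and *RELB* (0.01) turned from negative to positive.

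In sg*FOS* against sgScr, which addresses *FOS* editing in cells with the fusion, 5 members rose (*TNFAIP3*, *RELB*, *NFKB2*, *NFKBIE* and *BIRC3*) and 1 fell (*NFKBIZ*). Over all 14196 genes tested, 12.2% were called higher, 10.5% lower and 22.7% in either direction. The members' median log2 fold change was 0.15, against -0.0015 over all genes. The groups did not overlap in 8 members, 7 higher and 1 lower with sg*FOS*, where 24.0% of all genes were higher, 24.5% lower and 48.5% did not overlap in either direction. *REL* (log2 0.10, SE 0.068) and *RELA* (log2 0.10, SE 0.045) also lay above all sgScr libraries but were not called. The changes were small, from 1.15-fold to 1.55-fold, and the replicates were close: the biological coefficient of variation that edgeR estimated was 0.030, against 0.33 in *LA* against A549. When all 9 libraries shared 1 estimate of the spread, edgeR called 0 members, and 0 had an unadjusted *p* under 0.05. The edited gene *FOS* was not called in that fit either (log2 -1.49, edgeR adjusted *p* = 0.9999). Its 0 calls therefore do not separate changed from unchanged members. DESeq2 on the 5 libraries called 5 members, all but *NFKBIE*, where it called 13.8% of all genes. In bulk libraries such as these, fewer cells with a transcript and less of it per cell cannot be told apart.

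The sgScr cells carry the same pair of fusion guides as the *LA* cells, and no label gives a batch. In sgScr against *LA*, 1 member was higher (*BIRC3*) and 1 lower (*NFKBIZ*), where 10.6% of the 14521 genes tested were called higher, 12.3% lower and 22.9% in either direction. In 5 members the groups did not overlap, compared with 56.7% of all genes. Fits without 1 of the *LA* libraries keep 1 library in that group, so only their log2 fold changes are read here. The log2 fold changes of *NFKB1*, *NFKB2*, *RELA*, *RELB* and *NFKBIA* changed sign with the *LA* library that was kept, and those of the other 5 members did not. In sgScr against A549, 4 members were higher (*REL*, *BIRC3*, *NFKB1* and *NFKB2*) and 0 lower, where 19.8% of 14482 genes were called higher, 21.7% lower and 41.5% in either direction. In 9 members the groups did not overlap, compared with 69.2% of all genes. With the length and GC correction the members called higher were 6, where 18.0% of all genes were, with *RELB* (log2 0.59) and *NFKBIA* (log2 0.66) added. Without sgScr replicate 2 or 3, edgeR called 0 members, with 4 at an unadjusted *p* under 0.05. This comparison shares its A549 libraries with *LA* against A549, and the values of both are given side by side.

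Between the *LA* replicates the median absolute log2 difference was 0.64 over the members and 0.36 over all genes expressed in the series. *LA* replicate 2 was higher than replicate 1 in 8 of 10 members, with a median log2 difference of 0.62, while it was higher in 52.3% of the 14849 genes expressed in the series, with a median of 0.03. The differences were 1.66 for *NFKBIA*, 1.56 for *RELB*, 1.45 for *NFKB2*, 1.22 for *TNFAIP3* and 0.77 for *NFKB1*. *REL* (-0.50) and *NFKBIZ* (-0.33), which both rose in *LA* against A549, went the other way. Among the 30 targets of the pathway list expressed in the series, replicate 2 was higher in 25, with a median difference of 0.98. The other roles did not share a shift of that size. Their median differences were 0.16 for other inhibitors, 0.13 for receptors, 0.08 for kinases and -0.06 for adaptors. The A549 replicates also stood apart, with differences of 0.99 for *NFKBIZ*, 0.85 for *TNFAIP3*, 0.67 for *BIRC3*, -0.79 for *RELB* and -0.74 for *NFKBIE*, but the members went in both directions, 6 of 10 being higher in replicate 2. In sgScr and sg*FOS* the median absolute difference between replicates was 0.05 to 0.07.

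The subunits were then compared with each other as CPM per kb of transcript. *NFKBIA* had the highest level per length in all 4 groups, from 59.2 ± 4.87 (SD, *n* = 2) in A549 to 78.4 ± 57.5 (SD, *n* = 2) in *LA*. *REL* had the lowest, at 0.362 ± 0.051 (SD, *n* = 2) in A549 and 3.15 ± 0.13 (SD, *n* = 2) in sg*FOS*. The next places were held by *RELA* (39.4 ± 4.81) and *NFKB2* (23.5 ± 6.62) in A549 and by *NFKB2* (39.1 ± 0.84) and *RELA* (32.4 ± 0.41) in sgScr. In *LA* the same pair (35.7 ± 8.23 and 26.9 ± 17.7) did not differ beyond their spread. Lower down, *NFKBIE*, *NFKB1* and *BIRC3* in A549 (7.90 ± 2.83, 7.13 ± 0.080 and 6.88 ± 2.22) and *NFKBIZ* and *NFKBIE* in sgScr (5.47 ± 0.46 and 5.39 ± 0.16) were likewise within their spread.

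As a share of the 5 subunits per length, *REL* made up 0.35% and 0.56% in A549, 4.26% and 1.62% in *LA*, 3.12%, 2.93% and 3.01% in sgScr, and 2.81% and 2.67% in sg*FOS*. It remained the smallest share in every library. *RELA* made up 45.5% and 50.4% in A549, 49.3% and 36.8% in *LA*, 32.9%, 33.7% and 33.1% in sgScr, and 30.8% and 29.5% in sg*FOS*. *NFKB2* made up 29.9% and 26.3% in A549, 23.8% and 34.96% in *LA*, 39.6%, 40.2% and 40.2% in sgScr, and 43.2% and 43.6% in sg*FOS*. *RELA* was thus the largest share in the A549 and *LA* libraries and *NFKB2* in the 5 libraries with a further guide. These are shares of transcripts, and *REL* and *RELA* differ widely in length, so that the length trend between the libraries bears on them.

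**Figure D2:**
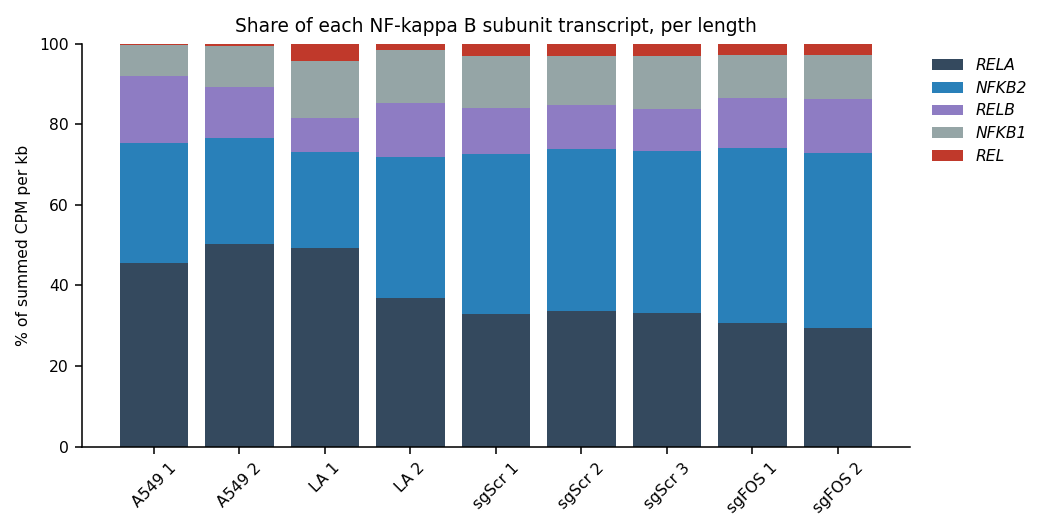
Stacked bars, 1 per library, of the share in percent of each NF-kappa B subunit in the summed CPM per kb of the 5 subunits. The *NFKB2* part grows from 26.3% to 29.9% in A549 to 43.2% to 43.6% in sg*FOS*, and the *REL* part is a thin band that is hardly visible in A549.

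The length trend touched every comparison with the A549 libraries. The A549 libraries also differed from each other by length. Across genes, Spearman's correlation of length with the log2 difference of replicate 2 from replicate 1 was 0.34 in A549. It was -0.03 in *LA*, and from -0.029 to 0.030 between replicates of sgScr and of sg*FOS*. Over 13982 genes with a length, the median log2 fold change in *LA* against A549 went from -1.263 in the shortest of 10 length classes of equal size to 1.06 in the longest. Members had a median transcript length of 3469 bases, compared with 3192 over all genes tested, and a median GC content of 51.6%, compared with 48.9%. *REL*, at 11108 bases the longest, thus lay among genes that were higher as a group, and *NFKBIA*, the shortest, among genes that were lower. No such trend with length was seen in sg*FOS* against sgScr, where Spearman's correlation across genes was -0.01, against 0.58 in *LA* against A549. With GC content, the same correlation was 0.26 in sg*FOS* against sgScr. The GC-rich members *NFKB2* (61.2%), *RELB* (64.9%) and *NFKBIE* (60.4%) had lower log2 fold changes in that comparison with the correction, at 0.27, 0.36 and 0.25. The correlations describe genes, which are not independent replicates.

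**Figure D3:**
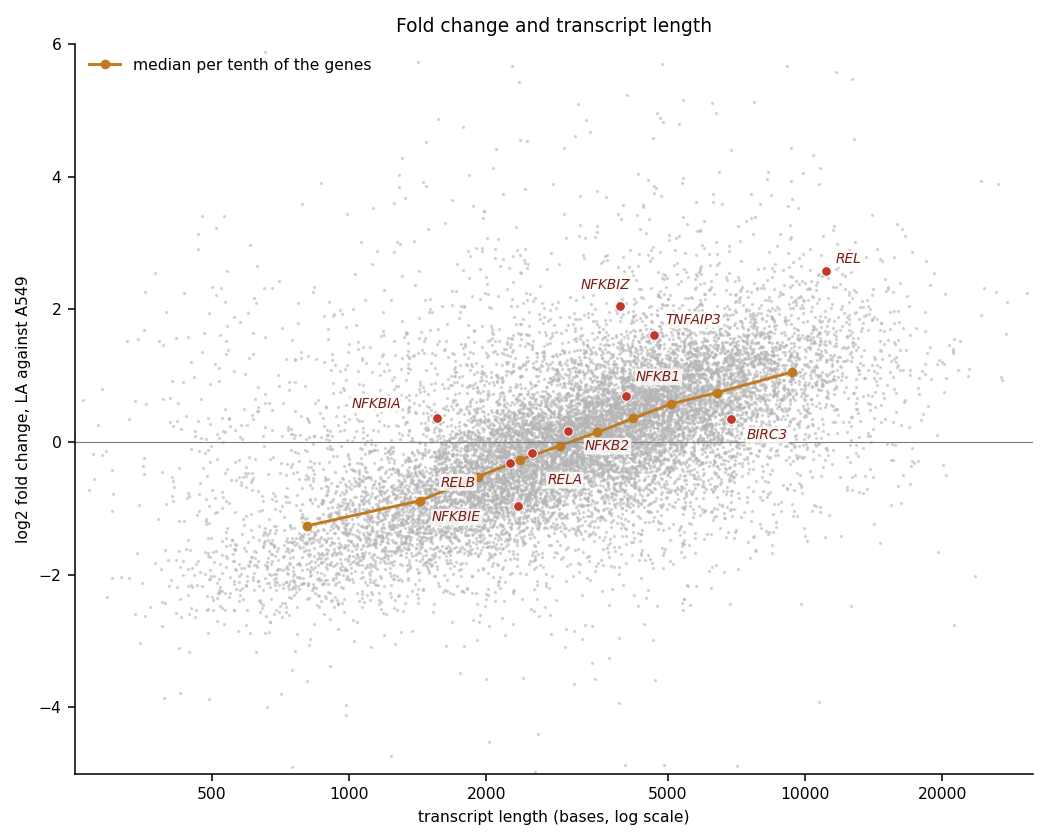
Log2 fold change in *LA* against A549 by transcript length on a log axis, with a grey point per gene (38 of 13982 genes lie outside the axis), members in red and the median of each of 10 length classes as a line. The line climbs from -1.263 to 1.06, and *REL*, *NFKBIZ*, *TNFAIP3* and *NFKBIA* lie above it while *BIRC3* and *NFKBIE* lie below it.

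The rest of the pathway was read from a list of 95 genes in 5 roles. In *LA* against A549, 18 of the 89 tested rose and 4 fell, with a median log2 fold change of 0.42, where 9.57% of all genes were called higher and 9.94% lower. Most calls on the list were lost without A549 replicate 1, *LA* replicate 1 or *LA* replicate 2. Without A549 replicate 2 more genes were called. Each such fit keeps 1 library in a group, and the share of all genes called in it is not given here. Of 12 receptors, 5 rose and 0 fell, against the same 9.57% called higher over all genes. Among the 5 was *TLR4* (log2 5.47), which passed the filter on low counts only in the comparisons that include *LA*. Its call was thus tied to its *LA* level and lends no weight to a rise of receptors. *IL1RAP*, the accessory chain of the interleukin-1 receptor, was at 1.62 and 5.55 CPM in A549 and 14.01 and 13.9 in *LA* (log2 1.92, SE 0.56, edgeR adjusted *p* = 0.019), and *TNFRSF10A*, a death receptor for the ligand TRAIL, at 6.46 and 9.62 against 28.0 and 23.7 (log2 1.65, SE 0.45, edgeR adjusted *p* = 0.014). Of 30 targets, 9 rose and 1 fell. *IL6*, among the 9 (log2 3.53), likewise passed that filter only in the comparisons that include *LA*. The neutrophil chemokine *CXCL5* was at 147 and 285 CPM in A549 and 886 and 1987 in *LA* (log2 2.696, SE 0.50, edgeR adjusted *p* = 0.0014), and the complement gene *C3* at 71.1 and 75.8 against 193 and 368 (log2 1.90, SE 0.43, edgeR adjusted *p* = 0.0042). In sgScr *CXCL5* was at 333, 331 and 327 CPM and not called against A549 (log2 0.62, edgeR adjusted *p* = 0.14). *C3* was at 199, 191 and 196 CPM and called (log2 1.42, edgeR adjusted *p* = 0.0044). Of 29 targets tested in sgScr against A549, 4 were higher and 6 lower, with a median of -0.17. Over all genes 19.8% were called higher and 21.7% lower there.

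In the other roles calls were fewer, and with the length and GC correction no gene of these roles was called. Among 15 kinases and their partners 1 rose, *TAB3* (log2 1.40), which links ubiquitin chains to the kinase TAK1. Among 19 adaptors 2 rose and 2 fell, the largest being the ubiquitin ligase *TRAF6* (log2 1.5) and *FBXW11* (log2 1.28), a receptor subunit of the ligase complex that marks inhibitor proteins. Among 13 other inhibitors the ubiquitin ligase *ITCH* rose (log2 1.38) and *COMMD1* fell (log2 -1.93). With the correction these 5 had edgeR adjusted *p*-values from 0.055 for *COMMD1* to 0.18 for *TRAF6*. The list as a whole had 14 genes higher and 1 lower, where 753 of all 13982 genes were called higher and 920 lower. *CXCL5*, *C3*, *IL1RAP* and *TNFRSF10A* kept their calls under it.

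In sg*FOS* against sgScr, 36 of the 89 tested pathway genes rose and 3 fell, with a median log2 fold change of 0.16, where 12.2% of all genes were called higher and 10.5% lower. With all 9 libraries in 1 fit edgeR called 0 genes of the list, with 8 at an unadjusted *p* under 0.05. That fit did not call *FOS* either. DESeq2 on the 5 libraries called 29, where it called 13.8% of all genes. The study's threshold (absolute log2 fold change over 0.5 and unadjusted *p* under 0.05) was passed by 15. Its share over all genes is not given here. Of 29 targets, 18 rose and 1 fell, with a median of 0.43. The cytokine *IL32* was at 11.9, 10.8 and 12.3 CPM in sgScr and 28.2 and 29.4 in sg*FOS* (log2 1.31, SE 0.091, edgeR adjusted *p* = 3.7e-14), although it had fallen in *LA* against A549. *BCL2A1*, a survival gene of the BCL2 family, was at 1.999, 2.33 and 2.13 against 4.21 and 4.46 (log2 1.011, SE 0.22, edgeR adjusted *p* = 5.1e-04). Both were higher in every sg*FOS* library.

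Upstream genes moved less. *MAP3K14* encodes NIK, the kinase that starts the noncanonical branch. It was at 95.3, 94.9 and 97.2 CPM in sgScr and 121 and 129 in sg*FOS* (log2 0.39, SE 0.042, edgeR adjusted *p* = 3.4e-09). With the length and GC correction *MAP3K14* was at log2 0.29. Activity of the noncanonical branch was not tested. The adaptors *TRAF1* (log2 0.87) and *CARD10* (log2 0.34) and the receptors *TNFRSF12A* (log2 0.54) and *TNFRSF10A* (log2 0.41) were also called higher. So were the kinase *IRAK1* (log2 0.27) of interleukin-1 signaling and the inhibitors *TNIP1* (log2 0.33) and *BCL3* (log2 0.32). These genes were named for the largest changes of their role among called genes. The receptor *IL1R1* (log2 -0.24) and the adaptor *FBXW11* (log2 -0.15) were called lower. Of 15 kinases 3 rose and 0 fell, of 13 other inhibitors 5 and 0, of 13 receptors 4 and 1, and of 19 adaptors 6 and 1. Over all genes 12.2% were called higher and 10.5% lower. With the length and GC correction the list had 33 genes higher and 3 lower, where 1259 of all 13784 genes were called higher and 1430 lower. In sgScr against *LA*, 1 of 90 genes of the list was called higher and 20 lower, 12 of them among 30 targets, where 10.6% of all genes were called higher and 12.3% lower. *IL6* and *TLR4* were among the 20. Both passed the filter on low counts only in the comparisons that include *LA*, so their calls lend no weight to a fall. The calls on the list fell to 3 without sgScr replicate 3. They grew in number without *LA* replicate 1, a fit that keeps 1 *LA* library. In sgScr against A549, 16 of 89 were higher and 17 lower, where 19.8% of all genes were called higher and 21.7% lower. Without sgScr replicate 2 or 3 edgeR called 0 of them, with 31 and 32 at an unadjusted *p* under 0.05. The calls grew in number without A549 replicate 2, a fit that keeps 1 A549 library. Shares of all genes called with a library left out are not given here.

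**Figure D4:**
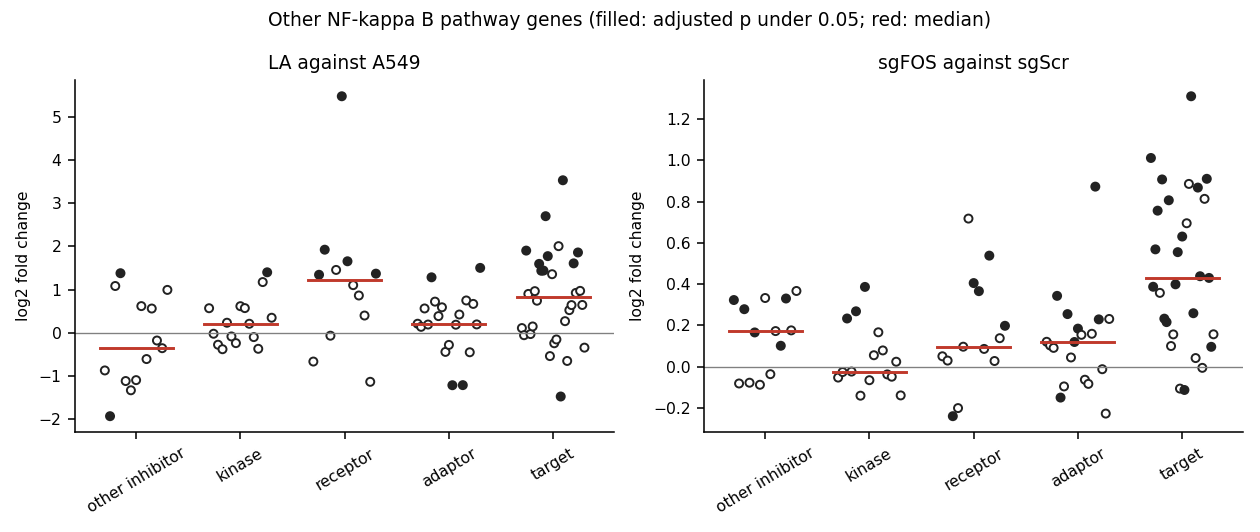
Log2 fold change of every tested gene of the pathway list by role, with a point per gene, filled where edgeR called it, and a bar at the role's median, in *LA* against A549 and in sg*FOS* against sgScr. The target medians are 0.82 and 0.43, and *TLR4*, a receptor named here after its value was seen, lies farthest out at 5.47. *TLR4* passed the filter on low counts only in the comparisons that include *LA*.

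The genes whose levels over the 9 libraries were most like those of *NFKB1* and *NFKBIA* were looked up among 11886 genes whose mean count was 50 or more. For *NFKB1* they were *MYO1C* (Pearson's *r* = 0.982), *ADCY9* (0.980) and *NIPAL3* (0.979), and for *NFKBIA* they were *ADM* (0.974), *CHAC1* (0.971) and *PDGFB* (0.969). The 9 points fall into 4 groups and share libraries and depth, so these values describe likeness only. *PDGFB*, for example, was at 2.703 and 24.9 CPM in *LA* and between 5.83 and 8.68 in the other libraries, so that its likeness to *NFKBIA* rested on the *LA* replicates.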

How the data were processed

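For 9 libraries the authors deposited a table of raw, whole-number read counts by gene. Per the labels and methods, stranded mRNA libraries were aligned to hg19 with STAR 2.7.10b, and DESeq2 1.26.0 was used for differential expression. The counting program, annotation and strand setting are not given in the sources used here, so genes that overlap a member carry an uncertainty of their own. All per-sample columns were used.

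Each comparison was fitted on its own libraries in edgeR 4.0.16 (R 4.3.3) by the two-sided quasi-likelihood test after TMM scaling and filterByExpr, with Benjamini-Hochberg adjustment over all genes tested and calls at an adjusted *p* under 0.05. Lengths and GC content came from GENCODE transcripts on GRCh37, matched for 22494 gene names directly and 1332 through older symbols. The correction for both entered a loess curve per library (span 0.5) as an offset. Plots used Python 3.11.15. Promoter windows came from RefSeq on GRCh38.p14. A count of 0 allows up to 3 counts, which covers counting error only. Procedures were tested on simulated data.

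The members, the pathway list and the markers were chosen with earlier results of these data known. Pathway genes named are the 2 with the largest absolute fold change per role among called genes whose mean count was 50 or more in *LA* against A549 and in sg*FOS* against sgScr, and the 3 genes most like *NFKB1* and *NFKBIA*. Alternatives were DESeq2 1.42.0, its size factors, library size alone, no filter, a mean count of 50 or more, 1 fit of all libraries, a block for the replicate number, the correction, the study's threshold (absolute log2 fold change over 0.5 and unadjusted *p* under 0.05), and leaving out each replicate. Where this left 1 library in a group, it was assumed to vary like the others.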

Additional observations from a re-analysis of the deposited data

How the results depend on the processing

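Under the alternatives run, 786 log2 fold changes of named genes kept their direction and side of the threshold, 92 lost a call, 35 gained one and 32 changed direction. With all 9 libraries in 1 fit, the members called were 5 in *LA* against A549 and 0 in sg*FOS* against sgScr, and the pathway genes called were 42 and 0, the latter with 8 at an unadjusted *p* under 0.05 in edgeR. That fit did not call *FOS* in sg*FOS* against sgScr either, whereas DESeq2 on the 5 libraries called 5 members. The study's threshold left 1 member and 15 pathway genes in sg*FOS* against sgScr. With the length and GC correction 5 members were called in sgScr against *LA*, and 4 with the block added. Over all 14074 genes the correction without the block called 2192 higher and 1863 lower there. Leaving out each replicate gave 1 to 4 members and 0 to 34 pathway genes in *LA* against A549 (0 without *LA* replicate 2, with 16 at an unadjusted *p* under 0.05), 1 to 8 and 3 to 71 in sgScr against *LA*, and 0 to 10 and 0 to 76 in sgScr against A549, the zeros without sgScr replicate 2 or 3, where 31 and 32 pathway genes had an unadjusted *p* under 0.05. Shares of all genes called are not given here for the fit of all libraries, the study's threshold or the block. They are also not given with a replicate left out, where some fits keep 1 library in a group. A change in these counts therefore cannot be read as particular to these genes. The cause of these differences was not tested.

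Same-numbered libraries did not deviate together (correlations from -0.22 to 0.058), so the numbers gave no pairing. With the replicate number as a block, the pathway genes called were 10 in *LA* against A549 and 13 in sgScr against *LA*, and the members called in sgScr against A549 were 2. A crossed pairing in *LA* against A549, chosen after seeing the data, called 3 members and 27 pathway genes. Shares of all genes called with the block or the crossed pairing are not given here, so these counts are not read as particular to these genes.

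Some directions turned in values near 0 that were not called. Larger values also turned, such as those of *NFKBIA*, *RELB* and *FOS* in sgScr against *LA* with 1 *LA* library left out. In sgScr against A549, *RELB* was called with its sign reversed under the length and GC correction (edgeR adjusted *p* = 0.0074). In *LA* against A549 the log2 fold change of *RELA* was 0.13 with library size alone, 0.11 with the correction and 0.11 with block and correction, that of *RELB* 0.013, 0.21 and 0.11, and that of *BIRC3* -0.43 with the correction and -0.46 with both. Leaving out each replicate gave -0.69 to 0.70 for *NFKB2*, -0.39 to 0.020 for *RELA*, -1.27 to 0.24 for *RELB* and -0.65 to 0.95 for *NFKBIA*. In sg*FOS* against sgScr *NFKB1* was -0.0002605 in the fit of all libraries, -0.028 with the correction and -0.033 to 0.044 with a replicate left out. In sgScr against *LA* leaving out each replicate gave -0.26 to 0.51 for *NFKB1*, -0.019 to 1.42 for *NFKB2*, -0.36 to 0.10 for *RELA*, -0.50 to 1.05 for *RELB*, -0.83 to 0.82 for *NFKBIA* and -0.76 to 1.101 for *FOS*, which was 0.14 with the block and with block and correction. In sgScr against A549 *RELA* was 0.054 with the correction and 0.045 with both, and *RELB* 0.022 with library size alone, 0.59 with the correction, 0.60 with both and -0.54 to 0.24 with a replicate left out.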
